A study of Homo sapiens with 24 samples.

Results

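The 107 genes described here had transcripts in H1299 vector control cells and far fewer in every one of 5 H1299 clones that stably express Δ133p53α or Δ133p53β. They were selected on their measured values: counts were scaled to CPM (a gene's count per 1000000 counts of its library), and a gene was taken when its mean in the 4 control libraries was at least 0.5 CPM and its mean in each clone was at most 25% of that. Of 60563 genes with a name in the deposited table, 16903 reached the control floor and 121 met both limits. Of these, 9 genes and 5 long noncoding RNAs with LINC symbols were left out by name, which left 107. The difference between control and clones is therefore what chose these genes, and it is described below without a test.

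The H1299 line comes from a human non-small cell lung cancer and lacks p53. The control was H1299 with vector alone, and the clones were 3 Δ133p53α lines (Δ133p53α1, Δ133p53α2 and Δ133p53α8) and 2 Δ133p53β lines (Δ133p53β5 and Δ133p53β10), all made by adding 1 isoform from a plasmid, with 4 poly(A) RNA libraries per line and 24 in all. All 24 came from 1 parental line without treatment beyond the plasmid, no time or dose is given, and the sources do not say whether the 4 libraries of a line were separate cultures, so p-values measure only the spread between these libraries. Each clone is a single line and the control is a single line, so that an effect of an isoform and a property of a clone or of the control line cannot be told apart. In RNA from whole cultures, fewer cells with a transcript and less transcript per cell cannot be told apart either. For 1 library the title gives Δ133p53β10 replicate 5 while the counts name Δ133p53β5 replicate 4. It was counted in Δ133p53β5. The same limits gave 107 genes with it in Δ133p53β10 and 110 without it.

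Δ133p53 proteins are made from an internal promoter and lack the N-terminal transactivation domains and the start of the DNA-binding domain. The α form keeps the usual C-terminus and the β form has a shorter, alternatively spliced one. They form complexes with other p53 family members and are studied for their part in invasion and metastasis. The genes below include a growth factor feedback inhibitor, cytokines, developmental receptors, neuronal surface proteins and germline genes.

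Total counts ran from 21531599 to 25381731 per library. The 2 leukocyte markers had 0 reads in all 24 libraries, the summed lung lineage markers lay at or under 0.686 CPM, and the summed epithelial markers ranged from 1073 to 1694 CPM in the control and from 1807 to 6151 CPM in the clones. The summed mesenchymal markers ranged from 3024 to 5283 CPM in the control and from 1960 to 4339 CPM in the clones. The part of these marker differences in the values below was not tested.

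Control library 3 stood apart in these genes. The 107 genes took 0.257% of its counts, against 0.101 to 0.114% in the other 3 control libraries and 0.0107 to 0.0237% in the 20 clone libraries. It held the highest of the 4 control values for 69 of the 107 genes, with a median level of 154% of the control mean. When each control library was used alone as the reference, 76, 68, 103 and 64 of the 107 genes stayed within the limit of 25% in all 5 clones for control libraries 1, 2, 3 and 4, and 48 did so against every one of them. When control library 3 was left out and the limits applied anew, 67 genes met them, 65 of which were among the 107.

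The libraries also fall into 2 sets by a gene length trend. In each library, log2 CPM relative to the gene's mean over all 24 libraries either rose or fell with exon length. Control libraries 2, 3 and 4 were in the set of positive trend and control library 1 in the set of negative trend. The positive set held 1, 3, 3, 1 and 1 libraries of Δ133p53α1, Δ133p53α2, Δ133p53α8, Δ133p53β5 and Δ133p53β10. The negative set held 3, 1, 1, 3 and 3 in the same order, so some clones rest on 1 library within a set. Within the positive set 88 of the 107 genes met the share limit, within the negative set 71 did, and 59 did in both. All 107 were lower in every clone within the positive set and 104 within the negative set.

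In the clone with the highest mean, the genes kept a median of 13.6% of their control level, and at most 24.7%. The median over all 16903 genes at the control floor was between 78.9% and 95.7% of control in the 5 clones. Over the 107 the median was 8.11%, 6.13% and 6.6% of control in the Δ133p53α clones 1, 2 and 8, and 4.08% and 4.88% in the Δ133p53β clones 5 and 10. In 83 of the 107, the lowest control library lay above the highest of the 20 clone libraries, where 2.21% of the 16903 genes at the control floor did so. The selection used this difference, so nothing is read from the counts of genes without overlap here or below. At least 1 read was found for 106 of the 107 in each control library and for 62 to 82 in the clone libraries. In 43 of the 107, every clone was under 10% of control, and 25 had 3 reads or fewer in every clone library.

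By role, 21 of the 107 were signalling genes and growth factors, of which 16 did not overlap between control and clones and which kept a median of 18.7% of control in their highest clone. The 16 neuronal genes kept a median of 9.12%, with 13 that did not overlap, and the 15 enzymes 6.64%, with 12. The 5 transcription factors and chromatin genes kept 20.9% and the 5 motor and cytoskeleton genes 17%, with 5 and 4 that did not overlap. The 26 noncoding RNAs, pseudogenes and unnamed loci kept 11.1%, with 19. The enzymes include SMPD5, which GENCODE annotates as a transcribed pseudogene. These groups by role were formed after the values were seen, and differences between them were not tested.

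**Figure D1:**
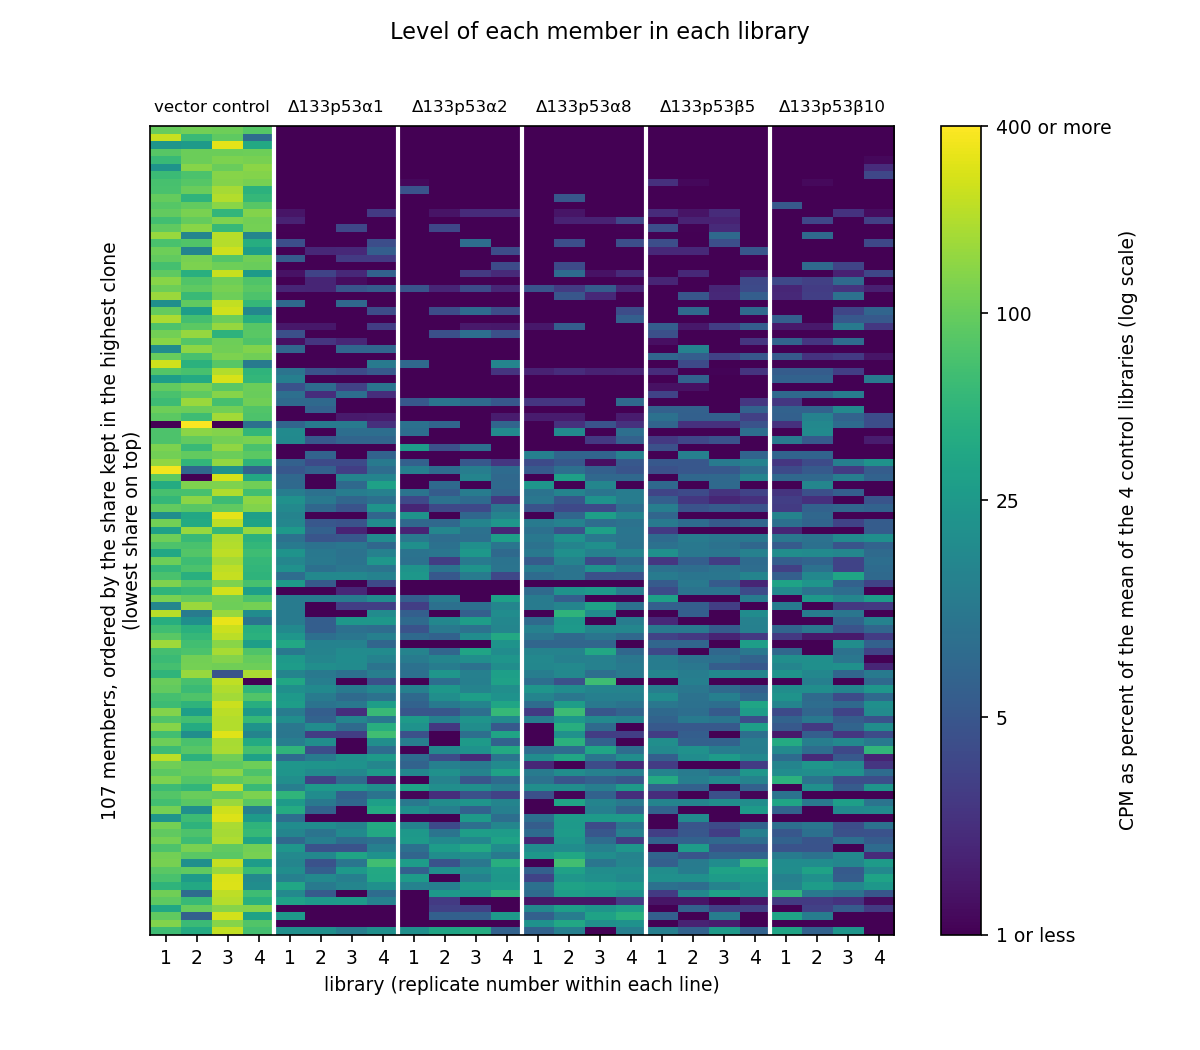
Each row is 1 of the 107 genes and each column 1 of 24 libraries, with colour for CPM as a percent of the mean of the 4 control libraries on a log scale (values at or under 1% share the darkest colour, values at or over 400% the brightest). Rows run from the lowest to the highest share kept in any clone, and the column of control library 3 is the brightest of the control for most rows.

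After a low-count filter, 82 of the 107 genes entered the edgeR quasi-likelihood fit over 17990 genes, with a call for an absolute log2 fold change of 1.5 or more and a p under 0.05 after Benjamini-Hochberg adjustment. Because the selection used these same contrasts, the counts are descriptive. Lower calls took 70 of the 82 in Δ133p53α1, where 1.41% of all genes tested were called lower. For Δ133p53α2 the number was 74 (1.67% of all genes), for Δ133p53α8 also 74 (1.41%), for Δ133p53β5 78 (2.94%) and for Δ133p53β10 78 (2.71%). In all 5 clones together 69 were called lower (0.534% of all genes). None of the 82 had a fold change above 0 in any clone, so 0 were called higher, at any p, where higher calls took 1.05%, 0.967%, 0.967%, 1.38% and 1.90% of all genes in the same order. The median log2 fold change of the 82 was -3.24, -3.75, -3.72, -4.22 and -4.14, again in that order, and that of all 17990 genes lay between -0.05 and 0.03. Without control library 3 the number called lower in all 5 clones was 58.

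At the limits themselves the values ran on without a gap. Just inside the share limit were NPAS2 at 23.9% of control in its highest clone, FLRT3 at 24%, IHO1 at 24%, IL13RA2 at 24.6% and TRIM2 at 24.7%. Just outside were CLIP3 at 25.1%, ARHGAP4 at 25.1%, GLI2 at 25.3%, PPP2R2C at 25.7% and PCDHB10 at 25.7%. COL26A1 at 0.522 CPM and PTPRD at 0.523 CPM were just over the control floor, and STAC2 at 0.484 CPM and MMP10 at 0.46 CPM just under it. CPM is not corrected for gene length, so levels are compared below within a gene and not between genes.

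Promoter sequence was at hand for 69 of the 107 genes in RefSeq promoters of GRCh38.p14 (250 bases before to 50 bases after the start, 27305 promoters in all). The 4 shown are those of 2 transcripts that nearly vanished from the clones, NETO1 and GFRA1, and of ERRFI1 and VGF, the members with the highest control CPM. Each is written 5′ to 3′ on the strand of the gene, with CG dinucleotides in capitals.
NETO1, chr18:72867938-72868237, minus strand: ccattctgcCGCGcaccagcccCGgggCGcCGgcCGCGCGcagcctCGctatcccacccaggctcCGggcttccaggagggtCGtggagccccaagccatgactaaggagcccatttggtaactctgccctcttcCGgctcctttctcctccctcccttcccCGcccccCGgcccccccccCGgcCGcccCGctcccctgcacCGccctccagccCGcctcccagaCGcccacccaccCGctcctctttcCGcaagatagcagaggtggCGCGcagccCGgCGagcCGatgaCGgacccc
GFRA1, chr10:116274656-116274955, minus strand: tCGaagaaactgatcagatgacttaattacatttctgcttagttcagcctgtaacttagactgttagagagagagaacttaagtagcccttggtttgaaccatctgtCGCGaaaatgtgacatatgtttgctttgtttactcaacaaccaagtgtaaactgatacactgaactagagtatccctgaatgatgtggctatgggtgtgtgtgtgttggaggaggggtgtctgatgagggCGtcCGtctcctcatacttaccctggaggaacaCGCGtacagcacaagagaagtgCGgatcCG
ERRFI1, chr1:8026260-8026559, minus strand: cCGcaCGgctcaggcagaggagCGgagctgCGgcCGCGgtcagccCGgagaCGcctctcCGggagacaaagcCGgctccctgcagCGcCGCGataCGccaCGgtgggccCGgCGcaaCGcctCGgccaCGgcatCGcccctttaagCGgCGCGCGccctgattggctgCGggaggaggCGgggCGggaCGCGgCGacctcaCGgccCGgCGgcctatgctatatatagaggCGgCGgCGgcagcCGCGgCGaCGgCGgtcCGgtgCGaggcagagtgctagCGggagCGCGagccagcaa
VGF, chr7:101165520-101165819, minus strand: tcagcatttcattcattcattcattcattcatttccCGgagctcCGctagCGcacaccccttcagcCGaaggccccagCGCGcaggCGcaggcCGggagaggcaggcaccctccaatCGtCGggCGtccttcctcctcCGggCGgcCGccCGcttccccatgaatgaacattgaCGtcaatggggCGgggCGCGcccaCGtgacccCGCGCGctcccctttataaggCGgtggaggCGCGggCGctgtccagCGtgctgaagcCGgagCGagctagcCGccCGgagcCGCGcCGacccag
The NETO1 window held 28 CG dinucleotides, the GFRA1 window 9, the ERRFI1 window 47 and the VGF window 35. The 2 near-silent genes shown differed in CG number, and in GC content (73.3% for NETO1 and 45% for GFRA1). Their ratios of observed to expected CG were 0.783 and 0.607, both above 0.6. The window of ZC3HAV1L, near-silent too and not shown, held 33 CG dinucleotides, with 74.7% GC and a ratio of 0.808. Over the 69 windows, 63.8% had a ratio of observed to expected CG above 0.6, against 48.9% of all promoters and 82.4% of the promoters of 11133 genes at the control floor.

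The short motifs given here were searched on both strands of the same windows, as letters that are present or not. TATAAA was in 8.7% of the members' windows, 12% of all promoters and 5.48% of those of genes at the control floor. CCAAT was in 26.1%, 35.7% and 36.6%, and GGGCGG, the core of GC boxes, in 60.9%, 44.6% and 70%. TGANTCA, the AP-1 site with any base in its middle, was in 8.7%, 7.76% and 4.43%, and ACAATG, a core of SOX sites, in 4.35%, 11% and 5.91%. A match says only that these letters stand in the window.

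Among signalling genes, ERRFI1, a feedback inhibitor of EGFR family receptors, was at 308, 344, 782 and 351 CPM in control libraries 1 to 4 and between 17.6 and 127 CPM in the clone libraries, with a median of 56.4. The control and the clones did not overlap, and control library 3 was the highest. The mean in the clones was between 10.4% of control in Δ133p53β10 and 19.2% in Δ133p53α2, and the log2 fold change between -2.30 in Δ133p53α2 and -3.10 in Δ133p53β10. Of the 13 genes tested in a list of 14 EGFR feedback inhibitors, ERRFI1 alone was called lower in all 5 clones, and the list's median log2 fold change lay between -0.74 and -0.08. The only other call in that list was DUSP4, a MAP kinase phosphatase, higher in Δ133p53α1 by 2.19 on the log2 scale.

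LIF, a cytokine that signals through LIFR and gp130, was at 26, 16.3, 54 and 14.2 CPM in the control libraries. In the clones it lay between 1.64 and 6.65 CPM with a median of 4.28, below every control library, and its log2 fold change ran from -2.14 in Δ133p53β10 to -3.24 in Δ133p53β5. Of 16 tested genes in a list of 19 for the LIF and gp130 cytokines, none but LIF was called in any clone. The receptor LIFR had log2 fold changes between -0.27 and 0.49.

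NOTCH3, a receptor for Jagged and Delta ligands, was at 8.31, 5.74, 32 and 5.46 CPM in the control and between 0.591 and 3.2 CPM in the clones. The groups did not overlap, although 3 of the control libraries lay much closer to the clones than control library 3. Its log2 fold change was between -2.39 in Δ133p53α8 and -3.47 in Δ133p53β10. In a list of 25 Notch pathway genes, 23 were tested and NOTCH3 was the only one called lower in all 5 clones. The ligand JAG1 was called lower in both Δ133p53β clones, by -2.06 and -2.13, MAML3, a coactivator, in Δ133p53α1 by -1.68, and the glycosyltransferase MFNG in Δ133p53β10 by -1.82.

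BMP7, a bone morphogenetic protein ligand, had 40, 42, 29 and 39 reads in the control libraries and 4 reads over all 20 clone libraries, all of them in Δ133p53α1. The other 4 clones had 0 reads, which with an upper limit of 3 reads over 4 libraries put BMP7 at least 48.2-fold lower in Δ133p53α2. Of 25 tested genes in a list of 30 for BMP signalling, BMP7 alone was called lower in all 5. ID4, a target of that pathway, was called lower in 3 clones, with -3.34 in Δ133p53α2, -4.17 in Δ133p53β5 and -3.80 in Δ133p53β10. ID1, ID2 and ID3 of the same list were called in no clone, with log2 fold changes of 0.15 to 1.20, -0.19 to 0.76 and -0.02 to 1.60. BMP4 was called higher in 1 clone, by 1.54 in Δ133p53α1. SMAD6, an inhibitor of the pathway, was called lower in Δ133p53α2, by -1.58. GFRA1, the co-receptor of GDNF, was at 1.69, 2.51, 3.22 and 2.84 CPM in the control and had at most 2 reads in any clone library.

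ROR2, a receptor for WNT5A in noncanonical Wnt signalling, was at 4.33, 7.2, 6.91 and 6.79 CPM in the control and between 0.121 and 1.74 CPM in the clones. Here control library 3 was not the highest, and the lowest control value stood clear of the clones. The log2 fold change was between -2.15 in Δ133p53α1 and -3.40 in Δ133p53β5. In the list of 22 noncanonical Wnt genes, 19 were tested, and CELSR1, a planar polarity cadherin outside the 107, was also called lower in all 5, between -1.55 and -2.13. WNT5B was called higher in 3 clones and PRICKLE1 in 2, and PRICKLE2 was called lower in Δ133p53α8, by -2.72.

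Other signalling genes with a high control CPM were LRP1, IGFBP3, ARHGEF4, ALPK2 and PREX1, and IL13RA2 is described further below. LRP1, an endocytic receptor, was at 20, 16.1, 80.3 and 14 CPM in the control and between 2.14 and 11 CPM in the clones. The groups did not overlap, and control library 3 lay far above the others. IGFBP3, which binds insulin-like growth factors, went the other way: control library 3 had 2.85 CPM, below all 20 clone libraries (4.31 to 17.8 CPM), while the other 3 control libraries had 30.3, 95.8 and 112 CPM. PREX1, a Rac exchange factor, was at 5.59, 10.6, 12.6 and 9.31 CPM in the control and at most 2.42 CPM in the clones.

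**Figure D2:**
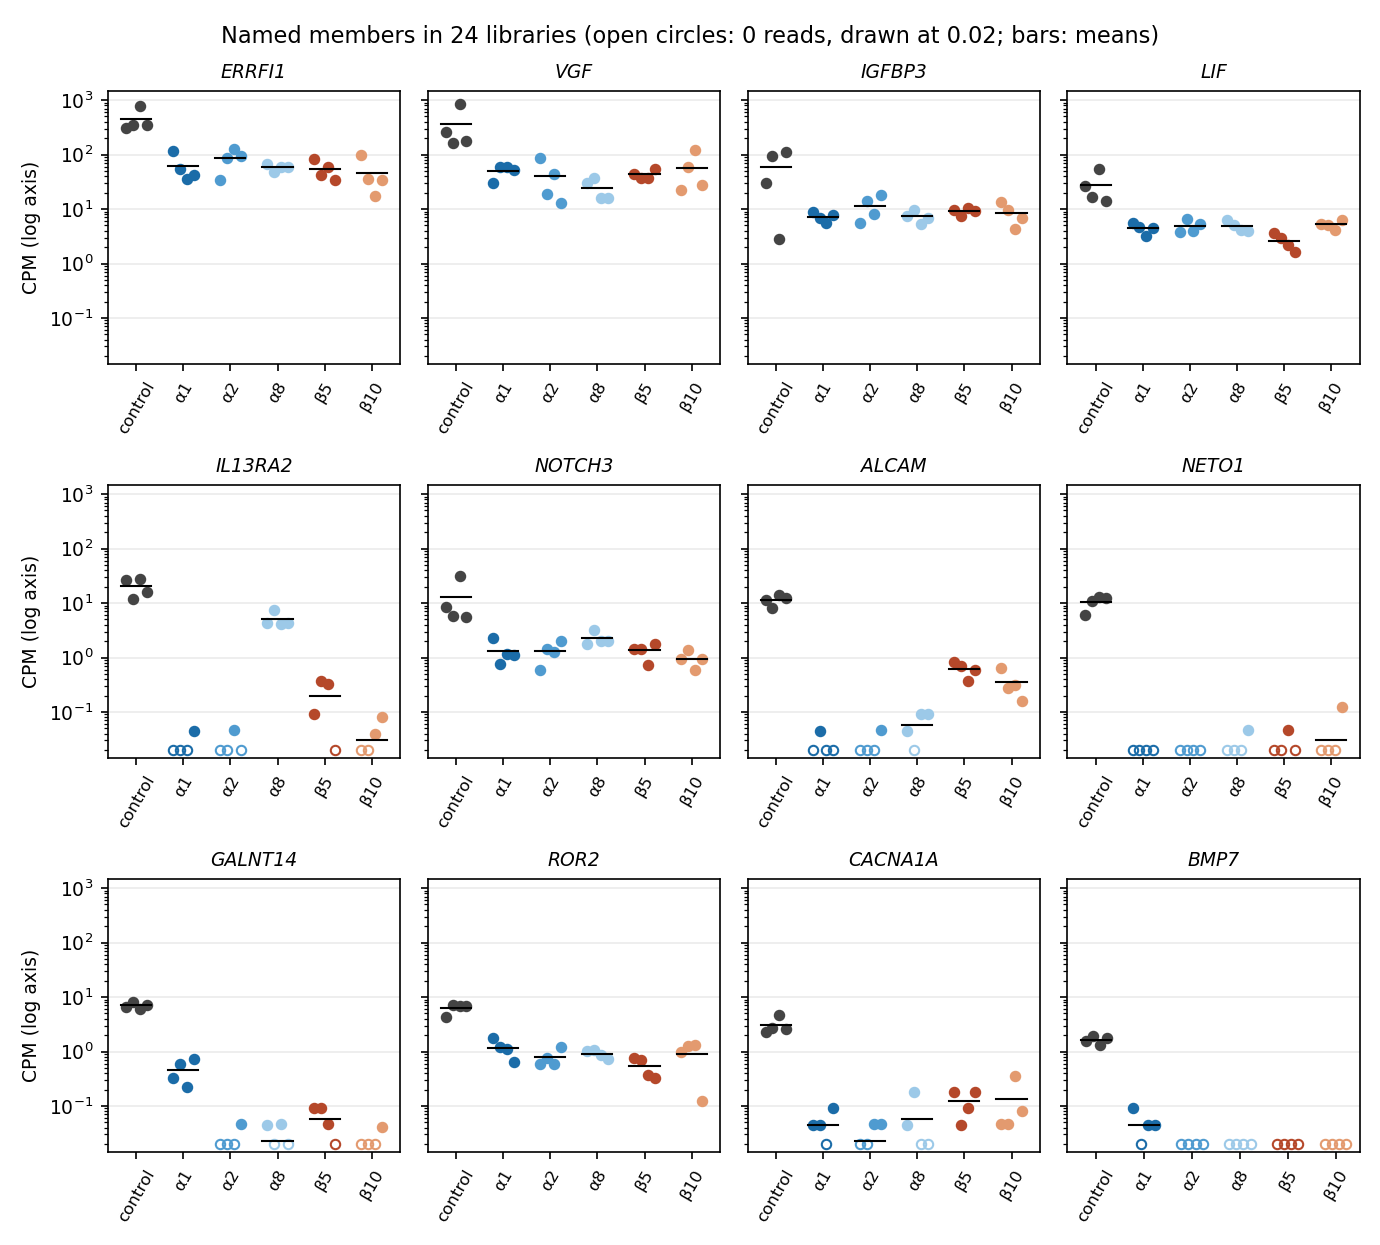
CPM on a log axis in the control and the 5 clones (α1, α2, α8, β5 and β10) for 12 of the genes, 1 point per library, bars at the means, and open circles at 0.02 for libraries with 0 reads. ERRFI1, VGF, LIF and NOTCH3 keep a level in every clone, NETO1 and BMP7 lie at or next to 0, and IGFBP3 has 1 control library under the clones.

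Neuronal surface, channel and secretory genes made up 16 of the 107, and 6 of them had 3 reads or fewer in every clone library. VGF, a neuropeptide precursor, was at 257, 160, 858 and 178 CPM in the control and between 13 and 122 CPM in the clones with a median of 37.4. The groups did not overlap, and Δ133p53α8 had the lowest mean at 6.75% of control. ADGRB1, an adhesion receptor, was at 24.8, 24.8, 69.7 and 23.2 CPM in the control and at most 5.35 CPM in any clone library. The 4 neuroendocrine markers summed to between 3.44 and 7.78 CPM in the control and between 0.825 and 2.62 CPM in the clones, and their part in these values was not tested.

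NETO1, an auxiliary subunit of glutamate receptors, had 156, 241, 280 and 268 reads in the control. Over the 20 clone libraries it had 5 reads, 3 of them in 1 library of Δ133p53β10, and 17 libraries had none. The 0 reads over 4 libraries of Δ133p53α1 put it at least 305-fold lower than control there, and at least 303-fold lower in Δ133p53α2. Over all clones the ratio was 923-fold, with an exact 95% counting interval of 394 to 2850.

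The set held 3 pore-forming subunits of voltage-gated calcium channels. CACNA1A, of P/Q-type channels, was at 2.29, 2.73, 4.74 and 2.57 CPM in the control and at most 0.356 CPM in the clones. CACNA1B, of N-type channels, was at 2.36, 5.33, 14.5 and 4.08 CPM in the control and between 0.504 and 1.61 CPM in the clones. Neither overlapped between the groups, and CACNA1B kept between 13.1% and 15% of control in all 5 clones, while CACNA1A kept between 0.745% and 4.29%. CACNA1H, of T-type channels, had 5, 5, 59 and 7 reads in the control and 0 in all 20 clone libraries, with most of the control reads in 1 library. Of 8 tested genes in a list of 18 channel subunits, CACNA1A and CACNA1B were the 2 called lower in all 5, and no other was called in any clone.

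Of 15 enzymes, GALNT6 and GALNT14 start mucin-type O-glycosylation. GALNT6 was at 20, 21.6, 31.5 and 17 CPM in the control and between 1.86 and 7.15 CPM in the clones, and GALNT14 at 6.62, 8.15, 5.98 and 7.25 CPM in the control and at most 0.726 CPM in the clones. Both were clear of the clones in every control library, and GALNT14 had its clone reads mostly in Δ133p53α1. The other 10 tested genes of a list of 22 for this pathway were not called in any clone. CYP2E1, a cytochrome P450, was at 10.1, 5.83, 7.96 and 5.69 CPM in the control and at most 0.593 CPM in the clones.

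Among adhesion, matrix and membrane genes, ALCAM, a cell adhesion molecule of the immunoglobulin family, was at 11.3, 8.02, 14.1 and 12.6 CPM in the control and at most 0.822 CPM in the clones. Control library 3 differed little from the rest for this gene, and no clone library came near the control. TMEM156, a membrane protein, was at 10.4, 9.02, 25.6 and 6.37 CPM in the control and at most 1.28 CPM in the clones.

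The 4 germline and meiosis genes were GAGE1, SYCE1, IHO1 and SPATC1, and none overlapped between control and clones. SYCE1, a part of the synaptonemal complex, was at 9.85, 5.74, 7.73 and 5.46 CPM in the control and at most 0.593 CPM in the clones. SPATC1, named for spermatogenesis and centrioles, was at 0.709, 0.82, 1.2 and 0.734 CPM in the control and had 1 read over the 20 clone libraries. GAGE1 belongs to a family of nearly identical cancer-testis genes, so that its reads are uncertain. Among the 5 F-box, tripartite motif and RNA-binding genes, FBXO27, a substrate receptor for glycoproteins, was at 36.6, 34.5, 97.8 and 26 CPM in the control and at most 9.65 CPM in the clones. ZC3HAV1L was at 0.827, 5.06, 3.87 and 5.32 CPM in the control and had 2 reads over all clones.

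CD22, a lectin of B cells, was listed among the near-silent genes at 1.1, 0.319, 2.95 and 0.183 CPM in the control, while the 2 leukocyte markers had 0 reads throughout. Of 26 noncoding RNAs, pseudogenes and unnamed loci, 8 had 3 reads or fewer in every clone library. LDHAL6FP, a lactate dehydrogenase pseudogene, was even across the control libraries at 4.37, 5.42, 5.39 and 5.5 CPM and had 2 reads over the 20 clone libraries. ENSG00000232111 had 24, 23, 22 and 17 reads in the control and 0 in the clones, and CACNA1H and ENSG00000236883 were the other 2 genes at 0 throughout. A pair of unnamed loci rested on 1 control library: ENSG00000273443 had 82.3 CPM in control library 1 and 1.51 to 4.83 CPM in the others, and ENSG00000224163 had 168 reads in control library 2 and 0, 0 and 4 in the others. FAM230C, ENPP4 (an ectoenzyme), MIR2052HG and ENSG00000284837 were also at 3 reads or fewer in each clone library.

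Members outside these accounts are given by role. The signalling genes TNFRSF8 (CD30), GIPR (the receptor of an incretin hormone), TMEM88, PMEPA1, GNG7, RPS6KA2, SH2D3C and KNDC1 had control means between 0.691 and 6.58 CPM. TNFRSF8 kept at most 1.56% and RPS6KA2, a ribosomal S6 kinase, at most 1.16% of control in any clone, whereas GIPR kept up to 23.6%. GIPR was at 2.68, 2, 15.9 and 1.01 CPM in the control, and its control and clone libraries overlapped. The neuronal genes CEND1, ELAVL2, CACNG4, TMEM178B and SLITRK1 had control means between 0.627 and 3.55 CPM, and ELAVL2, an RNA-binding protein of neurons, kept up to 20.3%.

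The adhesion, matrix and membrane genes MXRA8, OLFML2A, ITGAX, SLC45A1 and GJB2 had control means between 0.633 and 11.2 CPM. OLFML2A, an olfactomedin-like matrix protein, was at 10.9, 2.37, 18 and 2.02 CPM in the control and reached 5.03 CPM in 1 library of Δ133p53α8. ITGAX, an integrin chain, was at 2.01, 0.592, 9.16 and 0.459 CPM and reached 1.95 CPM in 1 library of Δ133p53α1, so that both overlapped between the groups. The enzymes ZDHHC11, ACOX2, C1RL, GASK1B, PADI2, LMF1, QPRT and GYG2 had control means between 0.592 and 4.91 CPM, and LMF1, which matures lipases, had at most 1 read in any clone library. ZDHHC11 has a close paralogue, so its reads are uncertain.

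The transcription factors PRDM1 and ZIC4 had control means of 2.84 and 0.753 CPM and kept up to 20.9% and 16.7% of them. TRIM71, a repressor of mRNAs in early development, had a control mean of 1.76 CPM and kept up to 7.12%. The cytoskeletal genes BMERB1, MYO15B and FMN2 had control means of 10.7, 2.28 and 0.989 CPM and kept up to 13.4%, 17% and 23.1%. Among noncoding loci, MAGI2-AS3 kept at most 1.01% of 7.94 CPM and SOX9-AS1, an antisense transcript named for SOX9, at most 1.94% of 0.593 CPM. The others were MIR4527HG, LMNTD2-AS1, ENSG00000256013, ENSG00000267886, ENSG00000275910, ENSG00000261655 and ENSG00000260293, with control means between 0.731 and 4.15 CPM. Whether reads of the opposite strand were counted for SOX9-AS1 cannot be told.

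By position, the members were spread over all autosomes but chromosome 15 and over X, with at most 10 on 1 chromosome (chromosome 19). Their biotypes followed those of all genes at the control floor, with 74.8% protein-coding against 75.2% and 19.6% long noncoding against 17.5%. The median exon length was 4869 bases against 4479. Of members within 100 kb of each other, most were a gene and a transcript on its opposite strand. In GRCh38 coordinates of GENCODE, CYP2E1 (chromosome 10, 133520406 to 133561220, plus strand) overlaps SYCE1 (133553901 to 133569835, minus strand). Their reads ran close together in the control libraries, at 257, 128, 173 and 124 for CYP2E1 and 250, 126, 168 and 119 for SYCE1. In Δ133p53β10 replicate 3 each had 15 reads. Whether the same reads were counted for both was not tested, so the 2 may not be separate losses. The libraries kept strand (dUTP in the second cDNA strand, per the labels), but the sources used here do not give the strand setting of the counting, so whether reads of opposite strands were separated cannot be told, which also holds for DNAH10 with DNAH10OS, AP1G2 with AP1G2-AS1, ALPK2 with ENSG00000267257, FBXO27 with ENSG00000287271 and ENSG00000267992, PREX1 with ENSG00000286159 and SORCS2 with PSAPL1.

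In the FBXO27 locus, ENSG00000287271 and ENSG00000267992 lie 15909 bases apart on the same strand. The other pairs that stand apart were VGF with NAT16 (chromosome 7, 4927 bases between them), IHO1 with ENSG00000225399 (chromosome 3, 1979 bases), MIR2052HG with PI15 (chromosome 8, 1221 bases) and SPATC1 with SMPD5 (chromosome 8, 1965 bases). NAT16, an N-acetyltransferase family gene, was at 6.11, 2.96, 16.4 and 1.79 CPM in the control and at most 0.548 CPM in the clones, and its order over the control libraries differed from that of VGF only in libraries 2 and 4. PI15, a peptidase inhibitor, was at 0.197, 0.273, 1.93 and 0.367 CPM in the control and at most 0.0915 CPM in the clones. MIR2052HG was at 0.788, 0.865, 2.26 and 0.459 CPM in the control, also highest in library 3.

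Genes next to the members are given as a description. For 105 of the 107, at least 1 tested gene that is no member lay within 1 Mb on either side, which gave 170 different nearest neighbours. Their log2 fold change averaged over the 5 clones had a median of -0.15, with quartiles of -0.51 and 0.23, against a median of -0.01 and quartiles of -0.35 and 0.33 over all 17990 tested genes. At least 1 clone had a lower call for 19 of the 170 (11.2%), against 3.91% of the 17896 tested genes that did not meet both limits. In all 5 clones 1 was called higher (0.588%, against 0.358%), which was BASP1, next to MYO10, named after its value was seen. How many neighbours were lower in all 5 clones is not read, since genes that met both limits were not taken as neighbours and the selection thereby kept that number low.

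**Figure D3:**
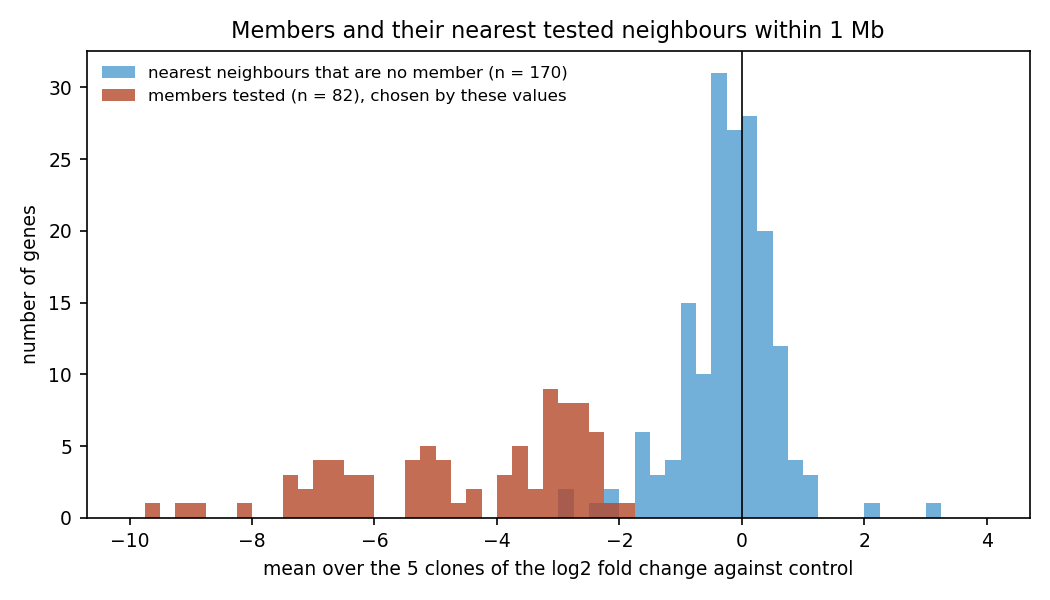
Number of genes by log2 fold change against control, averaged over the 5 clones, for the 82 members tested (red, which were chosen by these values and lie between -9.54 and -1.92) and for their 170 nearest tested neighbours within 1 Mb that are no member (blue, between -2.96 and 3.07). The neighbours have a median of -0.15 and all tested genes one of -0.01.

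How the genes differed among the clones was tested next. The selection set an upper limit in each clone but no order among clones, and p-values were adjusted over all 17990 genes. Any difference among the 5 clones was found in 16 of the 82 members tested (3.76% of all genes). Only 35 of the 82, and 7 of these 16, would have passed the low-count filter on the clone libraries alone, the others having passed through the control, so the count is not read against that share. Those of the 16 that needed the control libraries to pass were GALNT14, SOX4, NAP1L2, MIR4527HG, NPAS2, PTPRS, MYO10, C1RL and IHO1. Their p-values are given below as a description only. Clone reads were few in some of the 16, at most 9 per library for IHO1 and PTPRS and 13 for MIR4527HG and C1RL. In 4 of the 16, described first, the libraries of 1 clone stood above those of the other 4 without overlap. IL13RA2, a decoy receptor for interleukin 13, was at 26.4, 12.1, 27.2 and 16.1 CPM in the control and at 4.29, 7.36, 4.07 and 4.37 CPM in Δ133p53α8, but at most 0.365 CPM in any library of the other 4 clones (adjusted p = 1.45e-08, edgeR).

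IHO1, a meiotic recombination factor, was likewise kept in Δ133p53α8, at 0.228, 0.411, 0.32 and 0.418 CPM, and was at most 0.0912 CPM elsewhere in the clones (adjusted p = 0.00304, edgeR). The Δ133p53α1 clone kept NPAS2, a circadian transcription factor, at 1.01, 0.814, 0.861 and 0.454 CPM against at most 0.0929 CPM in the other clones (adjusted p = 1.65e-05, edgeR). It also kept GALNT14 at 0.32, 0.588, 0.227 and 0.726 CPM against at most 0.0913 CPM (adjusted p = 5.85e-05, edgeR).

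SOX4, a transcription factor, and NAP1L2, a nucleosome assembly protein, were also highest in Δ133p53α1, with means of 0.466 and 0.888 CPM, but overlapped with libraries of other clones, and both lost the call without Δ133p53α1 replicate 1 (adjusted p = 0.0545 and 0.118, edgeR). FBXL7, an F-box protein, had low means in Δ133p53α8 (0.103 CPM) and Δ133p53β5 (0.0799 CPM). Its means in the other 3 clones were between 0.583 and 0.965 CPM (adjusted p = 0.000373, edgeR). The clones with the low means carry different isoforms. Replicate 4 of Δ133p53β10, at 0.121 CPM, lay within the range of their libraries. C1RL, a complement-related protease, was highest in Δ133p53α8 (0.39 CPM) and had 0 reads in Δ133p53α2 (adjusted p = 0.0326, edgeR), and TMEM156 was highest in Δ133p53α1 (0.762 CPM, adjusted p = 0.033, edgeR). MIR4527HG had 0 reads in Δ133p53α2 and Δ133p53α8 and means of 0.227, 0.0343 and 0.289 CPM in Δ133p53α1, Δ133p53β5 and Δ133p53β10 (adjusted p = 0.0222, edgeR).

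**Figure D4:**
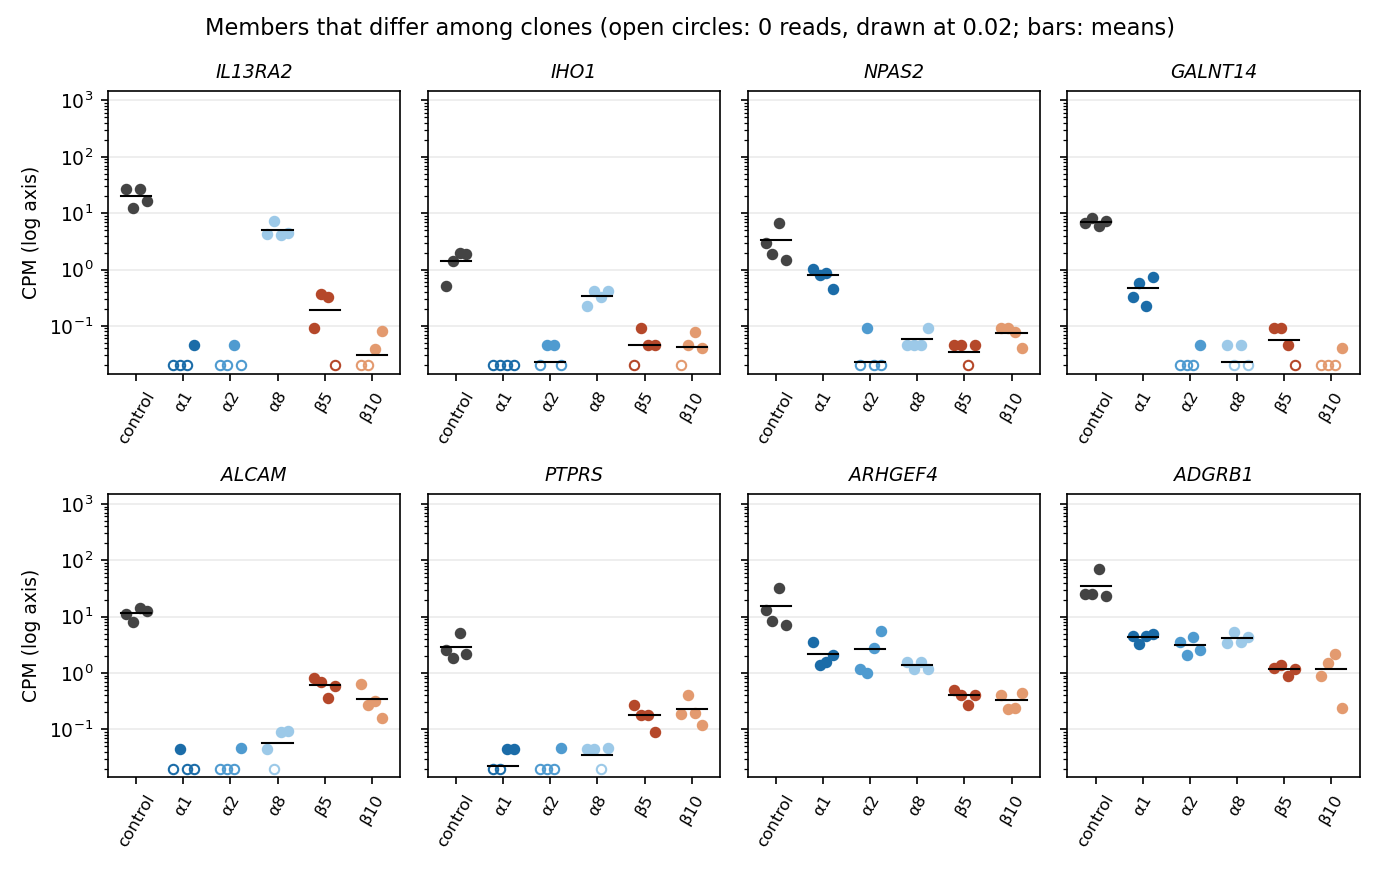
CPM on a log axis for 8 of the genes that differed among the clones, 1 point per library, bars at the means and open circles at 0.02 for 0 reads. IL13RA2 and IHO1 are highest in Δ133p53α8, NPAS2 and GALNT14 in Δ133p53α1, ALCAM and PTPRS in both Δ133p53β clones, and ARHGEF4 and ADGRB1 in the 3 Δ133p53α clones.

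Between the isoforms, the mean of the 2 Δ133p53β clones and the mean of the 3 Δ133p53α clones differed in 11 of the 82 members tested (1.32% of all genes were called). Of these 11, 6 would have passed the filter on the clone libraries alone, so this count is not read against the share either. The others were CYP2E1, SMPD5, PTPRS, MYO10 and FLRT2, whose p-values are likewise a description only. The median β minus α log2 difference over the 82 was -0.31, against -0.01 over all genes. The comparison rests on 3 clones and 2 clones, so a difference between isoforms and one between clones cannot be told apart. The 2 library sets by gene length trend are also spread unevenly over the isoforms, and counts with the set as a term are given at the end. A call can also rest on 1 clone of an isoform.

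ALCAM had 0.161 to 0.822 CPM in the 8 Δ133p53β libraries, with a median of 0.48, and at most 0.0929 CPM in the 12 Δ133p53α libraries. Every Δ133p53β library lay above every Δ133p53α library. In reads that was 86 against 7, and the log2 difference was 4.20 ± 0.417 (SE; adjusted p = 5.98e-07, edgeR). PTPRS, a receptor phosphatase of neurons, had 37 reads in Δ133p53β and 6 in Δ133p53α, again without overlap (log2 difference 3.01 ± 0.473, adjusted p = 0.000294, edgeR). In both genes every clone library was under the lowest control library.

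ARHGEF4, a guanine nucleotide exchange factor, went the other way, at 13.1, 8.24, 32.8 and 7.06 CPM in the control, 1 to 5.64 CPM in Δ133p53α with a median of 1.57, and 0.23 to 0.502 CPM in Δ133p53β with a median of 0.411. The 3 groups did not overlap (log2 difference -2.36 ± 0.331, adjusted p = 7.41e-05, edgeR). ADGRB1 had 2.05 to 5.35 CPM in Δ133p53α and 0.242 to 2.17 CPM in Δ133p53β, which overlap slightly (log2 difference -1.62 ± 0.316, adjusted p = 0.00252, edgeR). ALPK2, an alpha kinase, was at 6.5, 16.9, 7.32 and 17.4 CPM in the control and differed by -1.62 ± 0.338 (adjusted p = 0.00446, edgeR), with overlap between 0.119 to 0.731 CPM in Δ133p53β and 0.321 to 2.52 CPM in Δ133p53α.

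The other 6 calls rested on fewer reads or on libraries that overlapped. MYO10, a motor of filopodia, was absent from all 8 libraries of Δ133p53α2 and Δ133p53α8 but present in Δ133p53α1 at up to 0.64 CPM, so its log2 difference of 3.69 depends on the prior count of the fit. In reads it was 48 in Δ133p53β against 19 in Δ133p53α, a ratio of 3.67 with a counting interval of 2.11 to 6.6. CYP2E1 (36 against 8 reads), SMPD5, a sphingomyelinase locus annotated as a transcribed pseudogene (31 against 10), and FLRT2, an adhesion protein (8 against 1), were higher in Δ133p53β. ENSG00000269896 (48 against 220) and ENSG00000267257 (14 against 127) were lower. The call of SMPD5 was lost without Δ133p53β5 replicate 2, Δ133p53β5 replicate 4 or Δ133p53β10 replicate 3 (adjusted p = 0.0513, 0.0579 and 0.0886, edgeR), and that of CYP2E1 without Δ133p53β5 replicate 4 or Δ133p53β10 replicate 3 (adjusted p = 0.105 and 0.055, edgeR). FLRT2 lost it with DESeq2 (log2 difference 2.17, adjusted p = 0.117) and with the replicate number as a block in edgeR (2.61, adjusted p = 0.088). ENSG00000269896 lost it in 6 and ENSG00000267257 in 11 of the 24 fits that left out 1 library. Since ENSG00000267257 lies on the opposite strand of ALPK2, their 2 calls may share reads. CYP2E1 in turn overlaps SYCE1 on the opposite strand, which was not called (log2 difference 2.22, adjusted p = 0.0804, edgeR).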

How the data were processed

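The authors removed adaptors with Cutadapt, mapped to GRCh38 by HISAT2 and assigned reads to Ensembl genes with featureCounts. They deposited raw counts for each gene and library. The libraries were strand-specific, per the labels. The strand setting of the counting and the treatment of reads with several matches are not given in the sources used here. The table has 60564 rows, of which 1 names no gene and was left out.

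CPM was computed from column totals. The genes and the gene lists were chosen with earlier results of these data known, as were the alternatives below. Tests were run with edgeR 4.0.16 in R 4.3.3 (TMM, filterByExpr by line, 17990 genes, 1 quasi-likelihood fit of 6 lines, Benjamini-Hochberg adjustment), and the procedure was tested on simulated data. The SE is the log2 fold change divided by the square root of F. DESeq2 1.42.0 and limma 3.58.1 (voom) served as alternatives, as did other scalings, filters, limits, a replicate block and leaving out each library. For 0 reads over the 4 libraries of a line, folds were bounded with 3 reads over the line. Counting intervals are exact 95% intervals for the pooled reads and cover counting error only, since reads carry no molecular identifiers.

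Genes were named by rule: the 15 with the highest control CPM, 10 with the highest control CPM among those at 3 reads or fewer in every clone library, 5 on each side of the share limit, up to 10 each of those that differed among clones or between isoforms, members of the gene lists, and members within 100 kb of each other. Genes that the text names beyond these, such as ENSG00000224163, ENSG00000232111, CACNA1H and GAGE1, were chosen after their values were seen, as were the groups by role, in which the other members are listed. The transgene's own reads, 1 noncoding member and 1 promoter motif are not reported here. No library repeats another, since chi-square divided by its degrees of freedom was 15.8 or more in all 36 pairs within lines.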

Additional observations from a re-analysis of the deposited data

Results flagged for a closer look

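Single libraries stood far from the rest by Dixon's criterion for 4 samples in 14 of 75 sets of 4 libraries looked at, where chance alone marks about 1 in 20 in sets not selected beforehand. Of the 75 sets, 57 held the control values of named genes. These genes were selected by the mean of those same values, which 1 high library raises, so the 14 are not read against that rate. Control library 3 was the far library on the high side for the share of counts on the 107 genes (0.257%) and for 10 genes: ERRFI1 (782 CPM), VGF (858 CPM), FBXO27 (97.8 CPM), ADGRB1 (69.7 CPM), LRP1 (80.3 CPM), NOTCH3 (32 CPM), TRIM2 (1.61 CPM), ENSG00000287271 (10.9 CPM), ENSG00000267992 (13 CPM) and PI15 (1.93 CPM). Control library 1 was the far library for ENSG00000273443 on the high side (82.3 CPM), and on the low side for LDHAL6FP (4.37 CPM) and ROR2 (4.33 CPM).

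Between the isoforms, the edgeR test of the difference itself passed for ALCAM (log2 difference 4.2), PTPRS (3.01), MYO10 (3.69), SMPD5 (2.62) and CYP2E1 (3.07), higher in Δ133p53β, and for ARHGEF4 (-2.36), ADGRB1 (-1.62), ALPK2 (-1.62), ENSG00000269896 (-1.56) and ENSG00000267257 (-2.49), lower in Δ133p53β. PTPRS, MYO10, SMPD5 and CYP2E1 needed the control libraries to pass the low-count filter, so their results are a description only.

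Among the 5 clones, the adjusted p of the edgeR test was 1.45e-08 for IL13RA2, 1.21e-05 for ALCAM, 1.65e-05 for NPAS2, 5.85e-05 for GALNT14, 0.000373 for FBXL7, 0.00074 for ARHGEF4, 0.00304 for IHO1, 0.00507 for PTPRS, 0.0143 for NAP1L2 and 0.0166 for SOX4. In IL13RA2 and IHO1 the clone with the most reads was Δ133p53α8, in NPAS2 and GALNT14 Δ133p53α1. NPAS2, GALNT14, IHO1, PTPRS, NAP1L2 and SOX4 needed the control libraries to pass the low-count filter, so their p-values are a description only.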

How the results depend on the processing

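The number of genes within the limits was 107 and moved to 190 with a share limit of 33.3% and to between 67 and 142 when single libraries were left out, lowest without control replicate 3 and highest without control replicate 4. It was 85 with TMM or RLE scaling, all of them among the 107, and 93 with medians, of which 78 were. A filter at a mean of 1 CPM tested 41 of the 107 and called 36, 39 and 38 lower in Δ133p53α1, α2 and α8, 39 in each of Δ133p53β5 and β10, and 36 in all 5, with 7 between the isoforms and 9 among the clones; fewer genes were tested by construction. Leaving out single libraries gave 63 to 82, 67 to 82, 68 to 81, 71 to 86 and 67 to 86 in the clones in the same order, 58 to 79 in all 5, 8 to 12 between the isoforms and 12 to 18 among the clones. The other alternatives, DESeq2 (71 in all 5, 14 and 23) and limma (69, 8 and 13) included, stayed within 1.5 times the reported counts. Deviations of same-numbered libraries correlated between -0.92 and 0.92 in 60 pairs (median -0.04, and 0.03 for other numbers), in both directions, so the numbers were not taken as pairs. The replicate number as a block gave 61 in all 5 clones, 10 and 14. Chosen after seeing the data, the library set as a term gave 74, 12 and 20, and the fit without the 3 libraries of highest total count 62, 9 and 17. No isoform difference of the 10 genes named above changed sign. ADGRB1 fell under the fold threshold without Δ133p53β10 replicate 4 (-1.44), and ALPK2 without Δ133p53α8 replicate 3 (-1.49) and with the library set as a term (-1.33). Adjusted p missed 0.05 for CYP2E1 and ENSG00000267257 with limma (0.166 and 0.0836), with the block (0.0517 and 0.0811) and with the library of disputed clone moved (0.0863 and 0.0502) or left out (0.105 and 0.0795). ENSG00000267257 also missed it with the library set as a term (0.0693) and without the 3 libraries of highest total count (0.0515), and its highest value, 0.0998, was without Δ133p53α1 replicate 1. For SMPD5 it was 0.0513 with limma, 0.0579 with the disputed library left out and 0.0894 without the 3 libraries of highest total count. ENSG00000269896 fell under the fold threshold with limma (-1.47) and without those 3 libraries (-1.46, adjusted p 0.123). Genes with a few reads per library are limited by depth.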
